A study of Mus musculus with 23 samples.

Results

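The transcription factors that carry and amplify the interferon response were followed through muscle differentiation in C2C12 cells, a mouse myoblast line that fuses into myotubes when serum is lowered. They are 9 genes, chosen by symbol from the 32793 rows of the deposited gene tables: Stat2, Stat3, Irf1, Irf2, Irf3, Irf5, Irf7, Irf8 and Irf9. Of these, 8 were among the 14187 genes with enough counts to be tested, and Irf8 was not. The study compared control cells (genotype labelled WT) with cells labelled Runx1KO (here labelled KO), both from the same line. Cells were proliferating in 20% fetal bovine serum (day 0) or had spent 1, 3 or 6 days in 2% horse serum. The sample titles give the last time as day 6 and the series text gives it as 5 days, and the former is used here. There were 8 groups and 23 libraries of poly(A) RNA, with 3 in each group except WT on day 0, of which 2 were analysed here. How the knockout was made, and whether the cells are a single clone, is not given in the sources used here. Nothing in the labels says that replicates came from separate cultures, so p-values measure the spread between libraries, which may be technical.

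Interferons bind receptors coupled to Janus kinases, which phosphorylate Stat proteins. Stat2 and Irf9 are subunits of ISGF3, the complex that binds the interferon-stimulated response element (ISRE) in the promoters of antiviral genes. Irf3 is made constitutively and is activated when a cell senses foreign or misplaced nucleic acid, whereas Irf7 is itself an interferon target and amplifies interferon production. Irf1 activates, and Irf2 opposes, genes with similar sites, and the gamma-activated site (GAS) is a different palindrome, bound by Stat dimers. Stat3 is the effector of interleukin-6 family cytokines, which signal through the receptor subunit gp130.

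The promoters of 4 members are shown because they differ in which of these sites they hold. RefSeq promoter windows (GRCm38.p6, 250 bases before to 50 after a start site) were found for all 9 members, in 12 windows. The ISRE was searched as GAAANNGAAA, the GAS as TTCNNNGAA, and a single Irf core as AANNGAAA, on both strands. The core was added after the windows had been seen, and it can overlap an ISRE. Of 32851 windows of this length, 3.44% held the ISRE, 8.3% the GAS and 23.9% the core. Capitals mark the matches, and each stretch is written in the direction of its gene. Irf7 is shown whole (chr7:141266375-141266674, minus strand) as the member that changed most, and no match to any of these 3 motifs lies in it.
Irf7: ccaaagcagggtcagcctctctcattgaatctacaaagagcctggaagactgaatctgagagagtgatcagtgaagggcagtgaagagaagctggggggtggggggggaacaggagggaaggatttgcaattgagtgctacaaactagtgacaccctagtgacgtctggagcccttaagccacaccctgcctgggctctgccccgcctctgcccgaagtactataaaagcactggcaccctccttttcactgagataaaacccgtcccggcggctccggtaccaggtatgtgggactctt
The start of the Stat2 window (chr10:128270248-128270357, plus strand) holds an ISRE on the opposite strand, 222 to 213 bases before the start site, overlapped by a pair of Irf cores.
Stat2: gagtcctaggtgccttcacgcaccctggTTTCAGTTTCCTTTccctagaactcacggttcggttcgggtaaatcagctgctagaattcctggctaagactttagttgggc
The middle of the first Irf1 window (chr11:53769884-53769983, plus strand) holds a GAS 90 to 82 bases before the start site.
Irf1: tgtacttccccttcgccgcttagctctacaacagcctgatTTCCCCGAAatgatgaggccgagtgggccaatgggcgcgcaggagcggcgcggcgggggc
The start of the Irf2 window (chr8:46739495-46739594, plus strand) holds an ISRE with overlapping cores and, a few bases on, a GAS.
Irf2: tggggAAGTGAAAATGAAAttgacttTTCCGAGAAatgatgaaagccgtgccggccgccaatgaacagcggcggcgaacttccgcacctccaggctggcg
Both Irf9 windows, like that of Irf7, held none of the 3 motifs, and 1 of the 2 Irf8 windows held a pair of GAS matches. The Irf9 windows begin at chr14:55603735 and chr14:55604329, after the GENCODE start of the gene at chr14:55603571 (plus strand). Bases before that start were therefore not searched. For scale, 11 of the 24 interferon target genes with a window held the ISRE (45.8%), against 3.99% of all genes with a window. The Runx motif was searched as TGTGGT, found in 16.8% of windows, and as TGCGGT, found in 6.45%. The first lies once in the Stat2 window, and the second once each in those of Irf3 and Irf5 and in 1 of Irf8. A match is only a run of letters, and binding was not measured.

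Libraries held 22197606 to 23684077 estimated counts, and 3 counts, taken as the floor, came to 0.126 to 0.14 CPM (counts scaled by edgeR to a common library size). Runx1 mRNA, the check of the labels, was higher in the KO-labelled libraries on every day, with means of 120 against 84.0 CPM on day 0 and 311 against 153 CPM on day 6, so directions follow the labels and not a measured loss of Runx1. Replicate 2 of the day 1 group labelled KO stood apart: its log2 CPM differed from the mean of its replicates with an SD of 0.545 over tested genes, where the other 22 libraries had 0.316 to 0.403. Day 1 results that turn on it are also given without it. The labelled cell type was visible in the 7 muscle markers. Their sum was 1425 to 2460 CPM in WT libraries and 1749 to 5858 CPM in KO-labelled libraries, and on day 6 the ranges were 2184 to 2443 and 4819 to 5858 CPM. The 9 blood-cell markers together stood at 11.3 to 13.9 CPM in the KO-labelled libraries on day 6, at 5.12 to 8.29 CPM in WT that day and at 1.48 to 3.86 CPM in all other groups. Cd68 gave most of the day 6 sum, with 10.7 CPM in the group labelled KO. The macrophage receptor gene Csf1r went the other way, with 0.567 CPM there and 2.34 CPM in WT (log2FC -2.04, adjusted p = 5.64e-05 by edgeR). Csf1r was lower on days 1 and 3 as well (log2FC -1.79 and -2.98). Laptm5 was also lower on day 1 (log2FC -3.31), with at most 10 counts per library in WT. Ptprc, which marks all leukocytes, had at most 1 count, and the macrophage marker Adgre1 had 0 counts in every library. The 3 epithelial markers were scarce, with a sum of 0.441 to 2.44 CPM in the KO-labelled libraries and 0 to 0.129 CPM in WT on day 6, and of 1.76 to 1.93 against 0.127 to 0.427 CPM on day 1. Krt8 was called higher on both days and Cdh1 on day 6. The 4 endothelial markers together reached at most 1.25 CPM in any library. The part of these markers in the results was not tested. In bulk RNA, a change in all cells and a larger change in a few cannot be told apart.

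On day 0, 0 of the 8 tested members differed between genotypes by edgeR's quasi-likelihood test, where 17.5% of all tested genes did (5.59% with an absolute log2 fold change, log2FC, of at least 1). At an unadjusted p under 0.05 there were 4 (Irf2, Irf3, Irf7 and Stat3), by DESeq2 2 (Irf7 and Stat3), by limma on log2(TPM + 0.1) 1 (Irf7) and on log2(TPM + 1) 0, and where only the groups compared were fitted 1 (Irf3). On day 1, 1 member, Irf7, was lower in the KO-labelled libraries, beside 42.2% of all genes (8.83% with the fold criterion). On day 3, 4 were higher: Irf7, Irf9, Stat2 and Irf3, beside 43.2% of all genes in either direction. Irf7 and Irf9 were 2 with an absolute log2FC of at least 1, beside 11.1% of genes. On day 6, 6 were higher: Irf7, Irf9, Stat2, Irf5, Stat3 and Irf1, beside 42.9% of genes. Of these, 3 had an absolute log2FC of at least 1 (Irf7, Irf9 and Stat2), beside 12.2% of genes. Here and below, shares of all genes count both directions. The median log2FC of the 8 members was 0.25 on day 3 and 0.74 on day 6, where that of all tested genes was 0.04 and below 0.01. Against this background the number of members called says less than the size of their differences.

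**Figure D1:**
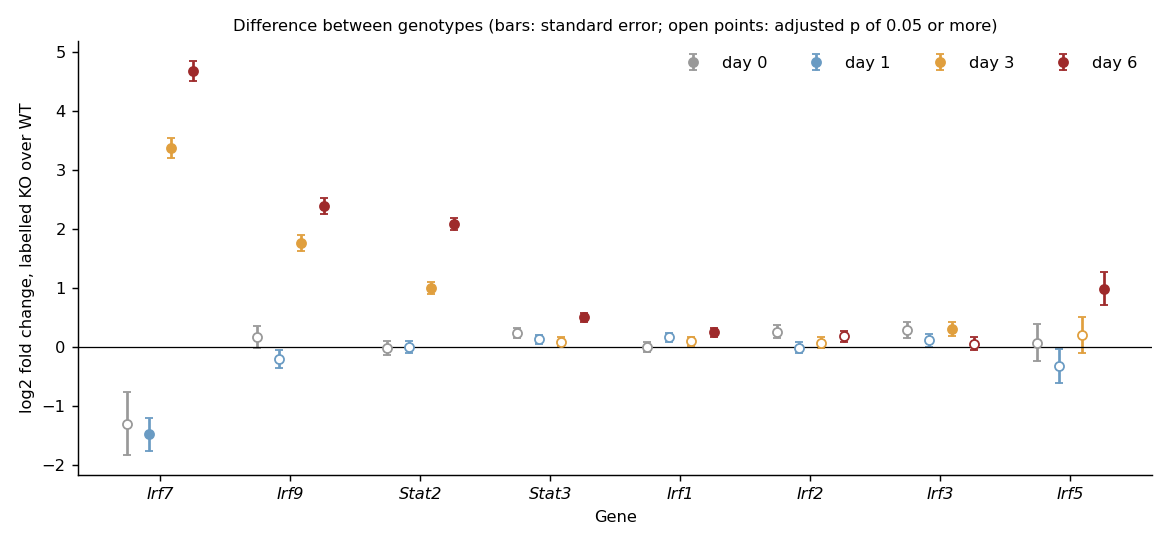
Log2 fold change of the KO-labelled libraries over WT on each day for the 8 tested members, with the standard error as bars and open points where the adjusted p was 0.05 or more. Irf7 moved from -1.31 on day 0 to 4.67 on day 6, and Irf2 passed the test on no day.

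Irf7, the inducible amplifier of the response, crossed from below WT to far above it. On day 0 it stood at 0.616 and 0.695 CPM in WT and at 0.272, 0.327 and 0.185 CPM in the KO-labelled libraries, which rest on 14 to 15 and 4 to 7 counts. All 3 KO-labelled libraries lay below both WT libraries, but the log2FC of -1.31 (SE 0.53) did not pass by edgeR (adjusted p = 0.1), whereas it passed by DESeq2 (-1.31, adjusted p = 0.0339) and by limma on log2(TPM + 0.1) (-1.20, adjusted p = 0.000335). Day 1 gave 2.34, 2.88 and 2.56 CPM in WT and 0.812, 0.712 and 1.25 CPM in the KO-labelled libraries. The groups did not overlap, and the log2FC was -1.49 (SE 0.27, adjusted p = 0.000137).

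On day 3 the order of the groups was the opposite. Irf7 was at 41.0, 27.8 and 38.4 CPM in the KO-labelled libraries against 2.92, 3.64 and 3.82 CPM in WT, so each of the former was above all of the latter. The log2FC was 3.37 (SE 0.17, adjusted p = 4.95e-13). On day 6 the KO-labelled libraries reached 105, 138 and 136 CPM and WT 5.76, 5.50 and 3.61 CPM. That is a log2FC of 4.67 (SE 0.17, adjusted p = 4.28e-16), with the means 25.5 times apart.

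Irf3, its constitutive counterpart, varied less. Irf3 ran from 30.9 to 39.3 CPM over all WT libraries, and from 34.5 to 48.5 CPM over those labelled KO apart from replicate 2 of day 1, at 26.3 CPM. The day 0 values were 37.5, 39.1 and 40.3 CPM in the KO-labelled libraries, above 30.9 and 33.2 CPM in WT. Their log2FC of 0.28 did not pass by edgeR (adjusted p = 0.155), and passed at 0.28 where only the groups compared were fitted (adjusted p = 0.0147). The day 3 values were 44.7, 44.8 and 48.5 CPM in the KO-labelled libraries and 36.1, 38.4 and 37.7 CPM in WT. The groups were apart and the log2FC was 0.30 (SE 0.11, adjusted p = 0.0379 by edgeR). That call was lost under 6 of the other settings, where the log2FC ran down to 0.14, and on leaving out any 1 of the 6 libraries. On day 1 the log2FC was 0.11 with all libraries and 0.27, past the threshold, without replicate 2 of the group labelled KO.

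The balance between the pair therefore differed by group on the TPM scale, which is per transcript length and so allows levels of different genes to be compared. In WT the ratio of Irf7 to Irf3 TPM was 0.026 ± 0.000013 (SD, n = 2) on day 0, 0.091 ± 0.017 on day 1, 0.108 ± 0.012 on day 3 and 0.166 ± 0.038 on day 6 (SD, n = 3 each). In the KO-labelled libraries it was 0.008 ± 0.0024, 0.031 ± 0.0066, 0.887 ± 0.175 and 4.01 ± 0.444 (SD, n = 3 each). Irf3 was the more abundant in every WT library and in all KO-labelled libraries up to day 1. On day 3 the KO-labelled libraries lay at 1.05, 0.704 and 0.903, around equal levels, and on day 6 at 3.50, 4.30 and 4.24.

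**Figure D2:**
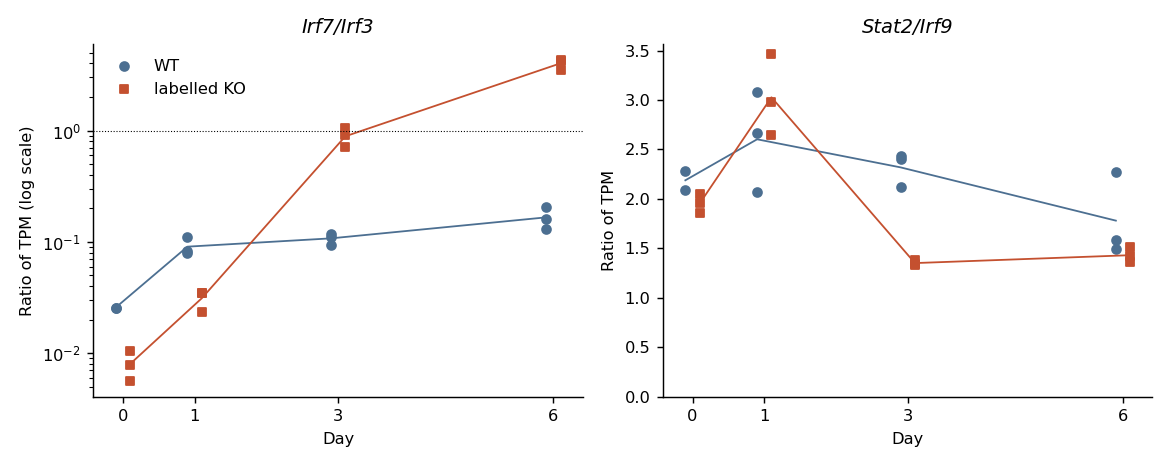
Ratio of TPM values by day, Irf7 over Irf3 on a log scale (dotted line at equal levels) and Stat2 over Irf9 on a linear scale, with libraries as points and group means as lines. The Irf7 to Irf3 ratio of the KO-labelled libraries lies below WT on days 0 and 1 and above it on days 3 and 6.

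Irf9 and Stat2, the DNA-binding and the Stat subunit peculiar to ISGF3, did not pass the test on day 0 or day 1 and were higher from day 3 on. Irf9 was 3.96 and 3.84 CPM in WT on day 0 and 5.35, 4.25 and 3.52 CPM in the KO-labelled libraries. Day 1 gave 5.78, 5.09 and 6.36 CPM in WT and 5.55, 4.94 and 4.34 CPM in the KO-labelled libraries. The groups overlapped on both days, with a log2FC of 0.17 on day 0 and -0.22 on day 1.

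On day 3 Irf9 was 27.0, 23.6 and 24.5 CPM in the KO-labelled libraries and 7.66, 7.28 and 7.20 CPM in WT (log2FC 1.76, SE 0.14, adjusted p = 3.92e-10). The day 6 values were 38.3, 45.6 and 46.6 CPM against 9.71, 8.65 and 6.71 CPM (log2FC 2.38, SE 0.13, adjusted p = 9.53e-13). Every KO-labelled library was above every WT library on both days.

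Stat2 was 15.4 and 14.5 CPM in WT on day 0 and 17.1, 14.9 and 12.05 CPM in the KO-labelled libraries, and on day 1 it reached 27.8, 29.0 and 24.3 CPM against 26.3, 26.7 and 27.8 CPM. The log2FC was -0.02 on day 0 and -0.01 on day 1, with overlapping groups. On day 3 Stat2 was 67.8, 58.5 and 59.7 CPM in the KO-labelled libraries and 30.4, 31.3 and 31.8 CPM in WT (log2FC 0.99, SE 0.098, adjusted p = 2.15e-08). Day 6 gave 110.1, 123 and 115 CPM against 28.5, 24.5 and 29.4 CPM (log2FC 2.08, SE 0.099, adjusted p = 6.19e-14). On both days the groups were apart, and WT itself stayed between 24.3 and 31.8 CPM from day 1 on.

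The subunits did not keep one proportion. The ratio of Stat2 to Irf9 TPM in WT was 2.19 ± 0.134 (SD, n = 2) on day 0, and 2.60 ± 0.506, 2.32 ± 0.176 and 1.78 ± 0.427 on days 1, 3 and 6 (SD, n = 3 each). In the KO-labelled libraries it was 1.95 ± 0.0983 on day 0 and 3.03 ± 0.409 on day 1, then 1.35 ± 0.0267 on day 3 and 1.43 ± 0.0792 on day 6 (SD, n = 3 each). On day 0 the range labelled KO, 1.85 to 2.05, lay below that of WT, 2.09 to 2.28, and on day 3 the highest value labelled KO, 1.38, was below the lowest WT value, 2.12. On day 6 the ranges, 1.36 to 1.52 and 1.49 to 2.27, overlapped.

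**Figure D3:**
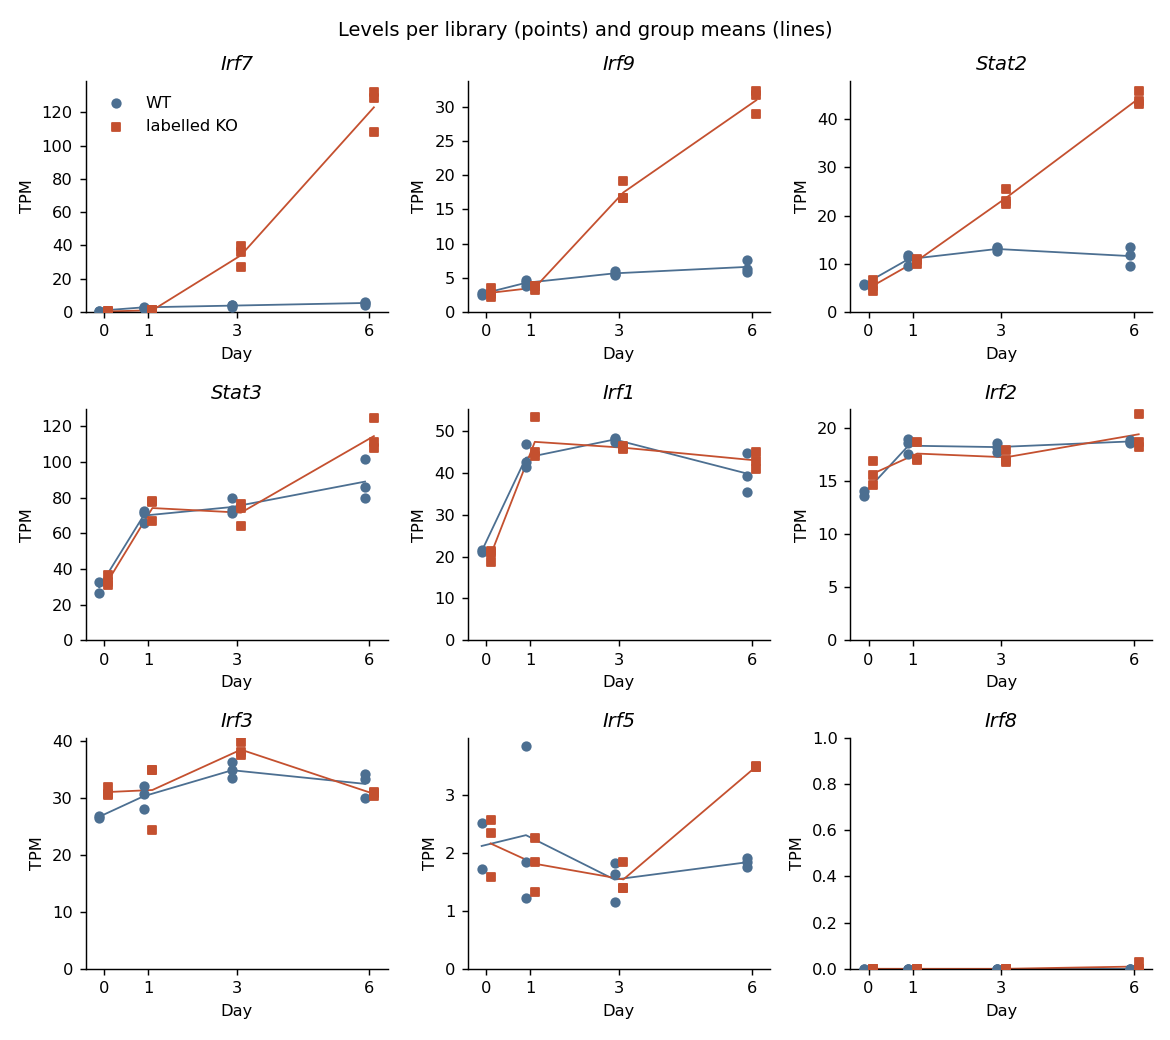
TPM of each member in every library (points) and as group means (lines) by day, in WT (circles) and in KO-labelled libraries (squares), each panel with its own axis from 0. Irf7, Irf9 and Stat2 lie above WT in the KO-labelled libraries on days 3 and 6, Stat3 and Irf5 on day 6, and Irf8 stays at or near 0 in both genotypes.

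Stat3, the effector of gp130 cytokines, was high throughout and differed late. The day 0 values were 91.1 and 77.5 CPM in WT and 107, 99.1 and 91.5 CPM in the KO-labelled libraries. On day 1 the values were 185, 185 and 174 CPM against 187, 197 and 209 CPM, and on day 3 they were 202, 182 and 182 CPM against 213, 205 and 184 CPM. The groups were apart by small margins on days 0 and 1 and overlapped on day 3, and none of the 3 comparisons passed by edgeR (log2FC 0.23, 0.12 and 0.09). The day 0 difference passed by DESeq2 (0.25, adjusted p = 0.032), without replicate 3 of the day 0 group labelled KO (0.29) and without replicate 1 of WT on day 0 (0.37). On day 6 Stat3 was 324, 310.3 and 306 CPM in the KO-labelled libraries and 219, 216 and 232 CPM in WT, which were apart (log2FC 0.50, SE 0.077, adjusted p = 1.41e-05 by edgeR).

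Irf1, an activator induced by interferon-gamma and by many stresses, and Irf2, its antagonist, differed little between genotypes. Irf1 was 26.7 and 27.5 CPM in WT on day 0 and 27.8, 28.1 and 24.9 CPM in the KO-labelled libraries. Day 1 gave 53.1, 49.3 and 49.2 CPM in WT and 54.7, 60.7 and 53.6 CPM in the KO-labelled libraries. These were apart, at a log2FC of 0.16 that did not pass by edgeR (adjusted p = 0.0791). Day 3 gave 54.8, 53.0 and 54.9 CPM against 57.7, 56.6 and 58.8 CPM, also apart, with a log2FC of 0.09 that did not pass. The day 6 values were 40.4, 47.6 and 45.5 CPM in WT and 52.5, 53.4 and 52.1 CPM in the KO-labelled libraries, which lay above WT (log2FC 0.24, SE 0.071, adjusted p = 0.00788). That call was lost with library size alone as the scaling (log2FC 0.17), on both TPM scales (0.11 and 0.12) and without WT replicate 1 of day 6 (0.15). Irf2 ran from 19.7 to 27.1 CPM in WT and from 22.8 to 31.7 CPM in the KO-labelled libraries, with a log2FC between -0.02 and 0.26 and no call on any day.

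Irf5, which acts downstream of Toll-like receptors and is best known from myeloid cells, was scarce. In WT it lay between 1.26 and 4.07 CPM over all days, and in the KO-labelled libraries between 1.52 and 3.36 CPM up to day 3, with overlapping groups. Day 6 gave 3.79, 4.09 and 4.31 CPM in the KO-labelled libraries and 2.02, 2.31 and 1.85 CPM in WT, which did not overlap (log2FC 0.98, SE 0.28, adjusted p = 0.00648 by edgeR). The summed blood-cell markers given above were highest in the same libraries, mostly through Cd68, while Csf1r was lower there than in WT. Of the gene itself, 14.1% of the exonic bases also lie in Tnpo3 on the opposite strand, so reads of the pair may not have been told apart where strand was not used. Irf8, a factor of myeloid and B-cell development, had 1 count in 1 library, replicate 3 of the day 6 group labelled KO, and 0 counts in the other 22. It was not detectable at this depth.

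The steps between successive days give the order in which members rose. From day 0 to day 1, 4 members rose in the KO-labelled libraries (Irf1, Irf7, Stat2 and Stat3, beside 52.3% of all genes called) and 6 in WT (the same 4 with Irf2 and Irf9, beside 54.7%). The log2FC labelled KO and in WT was 1.07 and 0.90 for Irf1, 1.00 and 1.11 for Stat3, 0.87 and 0.86 for Stat2, and 1.80 and 1.98 for Irf7. For Irf9 it was 0.17 and 0.56, and for Irf2 0.01 and 0.28. The genotypes' steps were compared by an interaction term, which shares its libraries with the steps, and 0 members passed, by edgeR, at this step, beside 3.95% of genes, with Irf7 at -0.18. The Irf9 step labelled KO came to 0.36 and passed (adjusted p = 0.0443) by limma on log2(TPM + 0.1). For the interaction, at an unadjusted p under 0.05, by DESeq2 and by limma there were also 0. The WT calls of Irf2 (adjusted p = 0.0336) and Irf9 (adjusted p = 0.0106) were lost without replicate 2 of the WT day 0 group, at a log2FC of 0.34 and 0.53. That of Irf2 was also lost without replicate 1 of that group (0.26), without replicate 3 of WT day 1 (0.26) and with no filter (0.27).

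From day 1 to day 3 the genotypes parted. In the KO-labelled libraries, 4 members rose: Irf7 by a log2FC of 5.27 (SE 0.21, adjusted p = 5.89e-15), Irf9 by 2.34 (SE 0.14, adjusted p = 6.69e-12), Stat2 by 1.20 (SE 0.099, adjusted p = 1.71e-09) and Irf3 by 0.36 (adjusted p = 0.0212), beside 26.7% of all genes. The Irf3 step came to 0.16, no longer past the threshold, without replicate 2 of day 1. It was also lost without replicate 3 of day 3 (0.32) and where only the groups compared were fitted (0.34). In WT, 0 members passed by edgeR, beside 19.7% of genes, with Irf7 at 0.41, Irf9 at 0.36 and Stat2 at 0.21. At an unadjusted p under 0.05 there were 2 (Irf5 and Irf9), by DESeq2 and by limma 0, and 1 (Irf9, 0.35) where only the groups compared were fitted. Irf5 fell by 0.90 on the log2 scale and passed (adjusted p = 0.0352) without replicate 3 of WT day 1. The interaction passed for 3 members, Irf7 (4.85), Irf9 (1.98) and Stat2 (1.00), beside 6.05% of genes. Stat3 and Irf1 were level over this step in both genotypes, between 0.02 and 0.10.

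From day 3 to day 6, 5 members rose and 1 fell in the KO-labelled libraries, beside 41.3% of all genes. Irf7 rose by 1.82, Irf5 by 1.09, Stat2 by 0.90, Irf9 by 0.80 and Stat3 by 0.64, and Irf3 fell by 0.35 on the log2 scale. The Irf3 call was lost without replicate 3 of day 3 or replicate 1 of day 6 of the group labelled KO, where the log2FC was -0.32 and -0.31. In WT 1 member changed by edgeR, Irf1, which fell by 0.29 on the log2 scale (SE 0.071, adjusted p = 0.011), beside 9.79% of genes. That fall came to -0.21, no longer past the threshold, without WT replicate 1 of day 6, and -0.27, not past it either, by limma on log2(TPM + 0.1). Stat3 passed as a rise in WT by DESeq2 (0.25), with RLE scaling, with a minimum mean count of 50 and where only the groups compared were fitted. Irf7 passed with no filter (0.52) and without WT replicate 3 of day 6 (0.71). The interaction passed for 4 members, Irf7 (1.31), Stat2 (1.09), Irf9 (0.62) and Stat3 (0.41), beside 12.4% of genes, and for Irf9 and Stat3 it was lost under other settings. For Irf5 it was 0.79 and did not pass.

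Expressed as a share of the mean reached on day 6 in the group labelled KO, the course of the members differed. Irf1 was at 51.2% on day 0 and at 107% already on day 1. Stat3 went from 31.6% to 63.1% on day 1, stayed at 64.0% on day 3 and made the rest of its rise after that. Stat2 was at 12.7%, 23.2% and 53.5% on days 0, 1 and 3, and Irf9 at 10.1%, 11.4% and 57.5%. Irf7 was at 0.21%, 0.73% and 28.3%, so most of its day 6 level was added after day 3, although its largest fold came between days 1 and 3. From day 0 to day 6 the group means rose 483 times for Irf7 in the KO-labelled libraries, from 4 to 7 counts per library, and 7.56 times in WT. The same folds were 9.95 and 2.14 for Irf9, 7.89 and 1.84 for Stat2, 3.16 and 2.64 for Stat3, and 1.95 and 1.64 for Irf1.

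**Figure D4:**
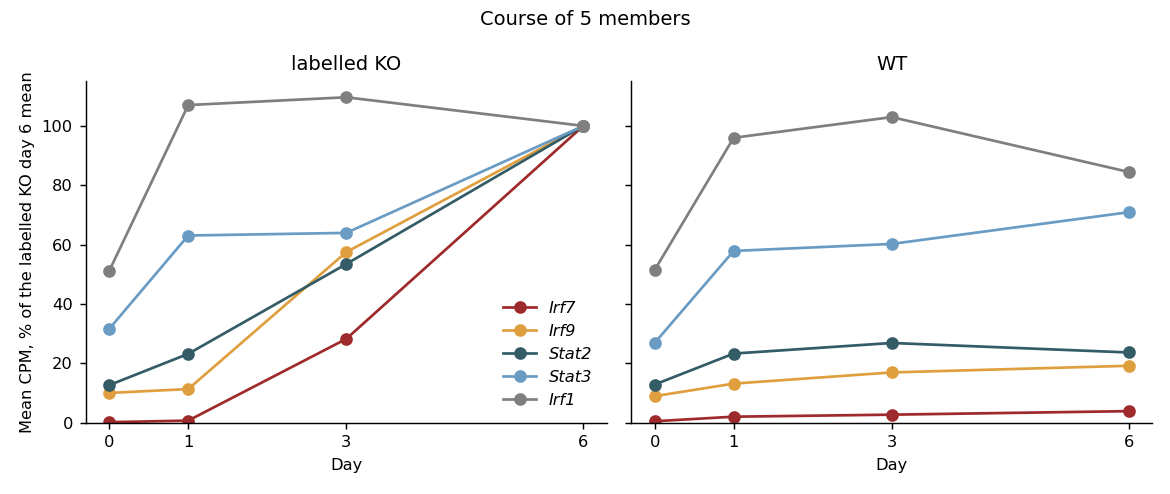
Mean CPM of 5 members by day, as a percent of the day 6 mean of the group labelled KO, in the KO-labelled libraries (left) and in WT (right). Irf1, Stat3 and Stat2 rise by day 1 in both genotypes. The day 1 rise of Irf7, to 0.73% labelled KO and 2.05% in WT, is hardly visible on this axis. In the KO-labelled libraries Irf9, Stat2 and Irf7 rise from day 1 to day 3 and again to day 6, and Stat3 from day 3 to day 6.

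The order of levels changed accordingly. By mean TPM on day 0 in WT, Stat3 (29.7) and Irf3 (26.7) led with overlapping ranges, followed by Irf1 (21.3), Irf2 (13.8), Stat2 (5.73), then Irf9 (2.62) and Irf5 (2.12) with overlapping ranges, Irf7 (0.685) and Irf8 (0). On day 0 the KO-labelled libraries had the same order. By day 6 in WT, Stat3 (89.0) and Irf1 (39.8) stood first, and Irf7 (5.34) was below Stat2 (11.6), with a range that overlapped that of Irf9 (6.59). In the KO-labelled libraries on day 3, Irf7 (34.0) had come to overlap Irf3 (38.4). On day 6 it stood first at 123, overlapping Stat3 at 115, followed by Stat2 (44.3) and Irf1 (42.9) with overlapping ranges, Irf9 (31.0) and Irf3 (30.7) with overlapping ranges, Irf2 (19.4) and Irf5 (3.49).

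The targets of these factors were counted from lists, with genes outside the naming rule added after their values were seen. Of 35 interferon targets, all tested, 2 were higher and 8 lower in the KO-labelled libraries on day 0, when 17.5% of all genes were called, and 5 higher and 10 lower on day 1, beside 42.2%. On day 3, 34 were higher, all but Oasl1, beside 43.2%, and on day 6 all 35, beside 42.9%. These shares of all genes count both directions. Of 14187 tested genes, 3403 were higher on day 3 and 3127 on day 6. Their median log2FC was -0.40, -0.18, 2.82 and 4.21 on days 0, 1, 3 and 6. All 8 that were lower on day 0 (Ddx58, Isg15, Oasl1, Oasl2, Parp14, Rtp4, Sp100 and Xaf1) and all 10 that were lower on day 1 were higher on day 6. Cmpk2 and Rsad2, neighbouring antiviral genes, were higher from day 0, with Cmpk2 at 0.751 against 0.157 CPM on day 0 and 19.6 CPM on day 6, at least 152-fold higher than in WT, which had at most 2 counts per library, with the floor of 3 counts per library. Oas2, which makes the activator of an antiviral ribonuclease, had at most 1 count per library in either genotype up to day 1. On day 6 it was at 57.8 ± 5.50 CPM (SD, n = 3) in the KO-labelled libraries and at or below 1 count in WT, at least 447-fold higher with the floor of 3 counts per library. Oas1a, a member of a family of near-identical genes whose reads may be split, was 50.7 against 0.145 CPM.

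Genes best known as targets of interferon-gamma and Irf1 were counted in the same way. Of 18 on the list, 16 were tested. On day 0, 1 was higher (Nlrc5) and 4 lower, beside 17.5% of all genes called, and on day 1, 2 were higher (Gbp5 and Nlrc5) and 7 lower, beside 42.2%. On day 3, 10 were higher and 1 lower (Psmb8), beside 43.2%, and on day 6, 14 were higher, all but Psmb8 and Socs1, beside 42.9%. The median log2FC was -0.59, -0.80, 1.59 and 3.49 on days 0, 1, 3 and 6. On day 6 Iigp1, an immunity-related GTPase, was 21.8 against 0.446 CPM, the guanylate-binding protein Gbp3 was 19.9 against 0.993 CPM, and the chemokine Cxcl10 was 14.5 against 0.727 CPM. Irf1 itself differed by a log2FC of 0.24 that day.

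**Figure D5:**
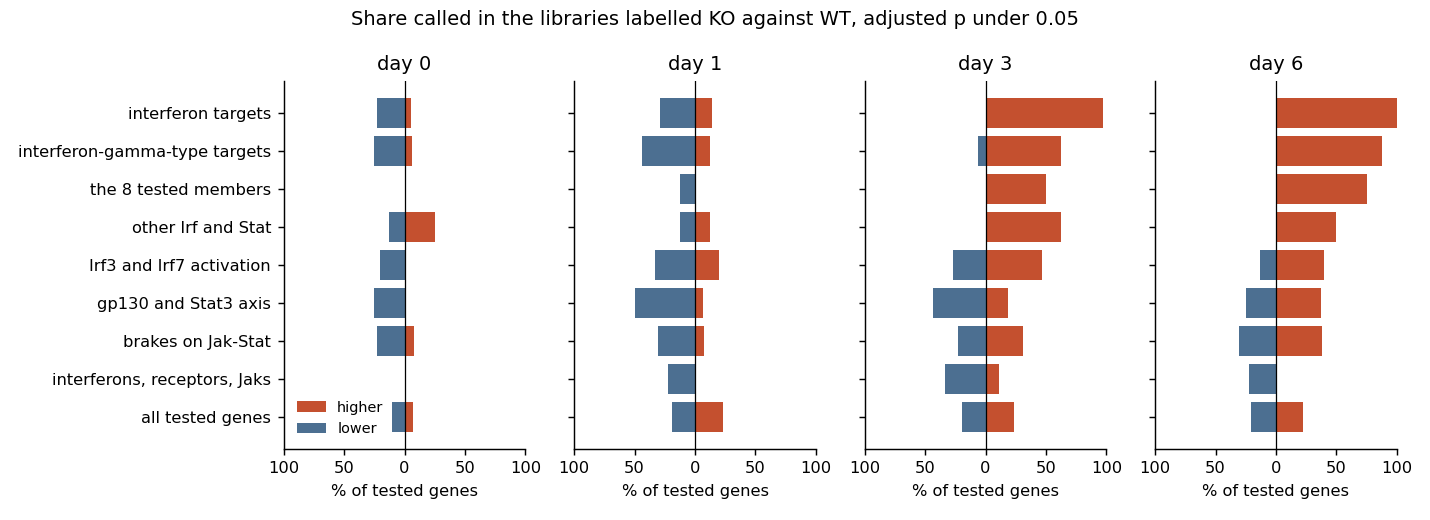
Share of the tested genes of each list that were higher (right) or lower (left) in the KO-labelled libraries on each day, with all tested genes in the bottom row. On day 6 all 35 interferon targets and 14 of 16 interferon-gamma-type targets were higher.

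Of the interferon genes on the list, Ifnb1 had at most 1 count in any library, Ifna1, Ifna2, Ifna4, Ifnl2 and Ifnl3 had 0, and Ifng had at most 8. The list does not hold every interferon gene. Of the 9 tested genes among receptors and Janus kinases, 0 were higher by edgeR on day 6 and 2 were lower, Ifngr1 (34.5 against 46.4 CPM, log2FC -0.43) and Jak1 (190.3 against 231 CPM, log2FC -0.28), beside 42.9% of all genes called. On day 3 Ifnar2 was higher, and Ifngr1, Jak1 and Tyk2 were lower, a share of the 9 close to the 43.2% of all genes. Among 15 genes that sense nucleic acid or activate Irf3 and Irf7, 7 were higher and 4 lower on day 3 (Ikbke, Irak4, Mavs and Ticam1), and 6 were higher and 2 lower on day 6 (Ikbke and Mavs), beside the same shares of all genes. On day 6 the 3 RNA sensors led. Ifih1 was 24.8 against 3.28 CPM (log2FC 2.92), Tlr3 12.9 against 2.52 CPM (2.36) and Ddx58 97.0 against 21.8 CPM (2.15). Ifih1 and Ddx58 are interferon targets themselves and stand on both lists. Tlr3 was already higher on day 1 (log2FC 0.92), when Irf7 and Ddx58 were lower. Of the 15, Tank and Tbk1 were also higher that day. Ikbke, Mavs, Ticam1 and Tmem173 were lower, beside 42.2% of all genes called.

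Of the 16 tested genes of the gp130 and Stat3 axis, 3 were higher and 7 lower on day 3, beside 43.2% of all genes called, and 6 higher and 4 lower on day 6 (Il11ra1, Il6ra, Lif and Pim1), beside 42.9%. The cytokine Il6 was 3.31 against 0.602 CPM on day 6 (log2FC 2.45). Cebpd, a transcription factor induced by Stat3, was 103 against 35.9 CPM (log2FC 1.52), and Il6st, which encodes gp130, was 210.1 against 111 CPM (log2FC 0.92). Among 13 brakes on Janus kinase signalling, 5 were higher on day 6 (Usp18, Ptpn6, Pias4, Socs3 and Ptpn11) and 4 lower (Cish, Pias2, Pias3 and Socs2), beside the same 42.9%. Usp18, which is both an interferon target and an inhibitor at its receptor, went from at most 1 count on day 1 to 45.7 CPM on day 6, against 0.201 CPM in WT. Ptpn6 was 1.99 against 0.746 CPM, and Cish, a target of Stat5, was 1.52 against 3.52 CPM.

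The genes whose log2 CPM followed each member most closely over the 23 libraries differed by member. These correlations are a description over libraries that share groups and days, among 11099 genes searched. Those of Irf7 were Zbp1 (r = 0.994), Oasl2 (0.993) and Ddx58 (0.982), those of Irf9 were Ifit3 (0.987), Mx2 (0.984) and Ifi44 (0.983), and those of Stat2 were Ifi27l2a (0.991), Samd9l (0.983) and H2-T24 (0.98). All but H2-T24 and Ifi27l2a are on the list of interferon targets. Those of Stat3 were App (0.984) and Sulf1 (0.979), and those of Irf1 were Ccdc8 (0.97), Ccdc141 (0.967) and Sox8 (0.964), none of them on the target lists. The closest genes of Irf2 (Eif3f, 0.828, Zfp36, 0.822, and Cox4i1, 0.796), Irf3 (Emc10, 0.843, Irf2bp1, 0.836, and Rapsn, 0.827) and Irf5 (Ubash3b, 0.792, Slc25a33, 0.774, and Bcl2l1, 0.763) were less close. Among the members, Irf7 and Irf9 (0.968), Stat2 and Irf7 (0.963) and Stat2 and Irf9 (0.956) were the closest pairs, and Stat3 and Irf3 stood at 0.044.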

How the data were processed

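Poly(A) RNA of 23 libraries was analysed from a pair of tables covering all libraries. The first holds estimated counts per gene symbol, deposited by the authors as whole numbers, and the second holds TPM computed by the authors. Per the submitters' processing notes, Bowtie2 and RSEM were used with the mm10 build, and versions, annotation and use of strand are not given in the sources used here. All columns were matched to samples by name.

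Testing used edgeR 4.0.16 in R 4.3.3 (quasi-likelihood F-test) on the estimated counts, taken as whole numbers, with TMM scaling, filterByExpr (minimum count 10, minimum total 15), one group-means model over all libraries and Benjamini-Hochberg adjustment over 14187 genes within each of 13 comparisons, at 0.05. Standard errors (SE) come from the F statistic. CPM values use TMM-scaled library sizes, and log2 CPM a prior count of 2. Floors of 3 counts cover counting error only. Of 32793 rows, 12326 were at 0 in every library.

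The members and lists were chosen with earlier results of these data known. Named genes were the members, Runx1, the 3 genes of each list with the largest day 6 log2FC among those called with groups apart, and for each tested member the 3 genes with the highest Pearson r, among genes with a group mean of at least 5 CPM. Some genes that the rule names are not reported here. The labels number the replicates, and nothing says that equal numbers share a culture. Alternatives were RLE scaling, library size alone, DESeq2 1.42.0, no filter, a minimum mean count of 50, limma 3.58.1 on log2(TPM + 1) and log2(TPM + 0.1), only the groups compared, a replicate block, an absolute log2FC of at least 1, and leaving out each library. Promoter windows are from RefSeq (GRCm38.p6), and exon overlaps from GENCODE.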

Additional observations from a re-analysis of the deposited data

Results flagged for a closer look

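The change over a step of differentiation differed between the genotypes, by the interaction test of edgeR, for 3 members from day 1 to day 3 and for 4 from day 3 to day 6. From day 1 to day 3 the difference in log2FC, KO-labelled libraries minus WT, was 4.85 for Irf7 (SE 0.32, adjusted p = 1.11e-09), 1.98 for Irf9 (SE 0.20, adjusted p = 7.65e-07) and 1.00 for Stat2 (SE 0.14, adjusted p = 5.02e-05). From day 3 to day 6 it was 1.31 for Irf7 (SE 0.24, adjusted p = 0.000977), 1.09 for Stat2 (SE 0.14, adjusted p = 3.49e-05), 0.62 for Irf9 (SE 0.19, adjusted p = 0.0317) and 0.41 for Stat3 (SE 0.11, adjusted p = 0.0155). For Irf9 the last call was lost by limma on log2(TPM + 0.1) (0.61) and without any of 7 single libraries (0.49 to 0.64). For Stat3 it was lost on both TPM scales (0.43 and 0.43), without replicate 3 of the day 3 group labelled KO (0.35) and without replicate 1 of WT on day 3 (0.36). Both steps share the day 3 libraries.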

How the results depend on the processing

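Log2FC of members were recomputed under 9 settings (936 values, of which 910 stayed on their side of the threshold, 15 fell below it, 11 passed it and 0 reversed) and without each library (744 values, of which 714, 25, 5 and 0). Requiring an absolute log2FC of at least 1 left 793, 1253, 1579 and 1731 genes between genotypes on days 0, 1, 3 and 6. It left 1766, 839 and 1389 for the steps labelled KO, 2483, 661 and 233 for those of WT, and 117, 300 and 370 for the interactions. Members called were then 2 on day 3 and 3 on day 6, 2 and 2 for the first and last steps labelled KO, 2 and 0 for those of WT, and 2 for the last interaction. Fitting only the groups compared gave 3607 genes between genotypes on day 1, 1659 and 4642 for the steps from day 1 to day 3 labelled KO and in WT, and 239 for the first interaction, with 1 member called on day 0, 1 for the middle and 2 for the last WT step. On day 0, 2 members were called by DESeq2 and 1 by limma on log2(TPM + 0.1), which gave 0 for the last WT step and 2 for the last interaction. DESeq2, RLE scaling, a minimum mean count of 50 and no filter each gave 2 for the last WT step. The causes were not tested.

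Without single libraries, genes between genotypes on day 0 ran from 1265 to 2216 and members from 0 to 1, and members on day 1 from 1 to 2. For the middle WT step members ran from 0 to 1. For the last WT step genes ran from 762 to 1579 and members from 0 to 2. The first interaction ran from 148 genes (without WT day 0 replicate 2) to 919 (without replicate 3 labelled KO of day 1). The last ran from 1125 to 1893 genes and from 2 to 4 members.

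With the replicate number as a block, 2221, 5833, 6023 and 5959 genes and 0, 1, 4 and 6 members differed between genotypes on days 0, 1, 3 and 6, and the number of members was that of the fit without it in all 13 comparisons. Deviations of same-numbered libraries correlated by -0.094 to 0.049 on average, over 2 or 3 pairs per comparison. So few pairs cannot show whether equal numbers share a culture. On the log2(TPM + 1) scale the difference in log2FC from the count fit had a median over all genes of -0.146 on day 3 and -0.122 on day 6. Depth limits Irf7 on day 0, Irf5 and Irf8.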

Other observations

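Stat5a, which carries growth hormone and prolactin signals and is on a further list of Irf and Stat genes, was 83.3 against 43.1 CPM on day 6, higher in the KO-labelled libraries (log2FC 0.95). Stat5b, chosen after its values were seen, had a log2FC of 0.61 that day. Stat3 and Stat5a share 72 exonic bases in opposite orientation, 0.756% of those of Stat3.

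The sign of 4 small differences between genotypes, none of which passed by edgeR, turned between CPM and TPM. On day 3 the means of the KO-labelled libraries and of WT were 57.7 and 54.2 CPM but 46.0 and 47.9 TPM for Irf1. For Stat3 they were 200.5 and 189 CPM but 71.6 and 74.8 TPM, and for Irf2 25.3 and 24.1 CPM but 17.2 and 18.2 TPM. Irf3 on day 6 gave 35.9 and 34.6 CPM but 30.7 and 32.4 TPM.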
